A study of Homo sapiens with 9 samples.

Results

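Chemokines are small secreted proteins that steer leukocytes, and the genes described here are the 31 named rows, out of 52158 in the deposited count table, whose symbol is CXCL or CCL plus a number, or CX3CL1. Total RNA had been sequenced from 9 human oesophageal adenocarcinoma cell lines, which the labels call ESO-26, ESO-51, FLO-1, JH_EsoAd1, OAC_5.1_C, OACP4_C, OE19, OE33 and SK-GT-4. All were grown to subconfluence in ordinary culture with no treatment, and the labels give gastric cardia adenocarcinoma as the source. Each line contributed 1 library, so a difference between lines has no replicate check, no test between lines was possible, and every interval covers counting error only. According to the design text every line was run as 3 technical replicates, with no word on how these were merged into its 1 column. CCL3, CCL4, CCL5, CCL3L1, CCL3L3, CCL4L1, CCL4L2, CCL14, CCL15, CCL16, CCL18 and CCL23 were not analysed here.

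The family is divided by the spacing of its first cysteines into CXC, CC and CX3C chemokines, and each ligand acts through one or a few G protein-coupled receptors on the cells it attracts. CXC chemokines with a glutamate-leucine-arginine motif bind CXCR2 and call in neutrophils, the interferon-inducible ligands of CXCR3 call in T cells, and CCL2 and its relatives call in monocytes. Epithelial and tumour cells make several of them, many after NF-kB has been activated by IL-1, TNF or bacterial products, and a few, such as CXCL16 and CCL28, without any stimulus.

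Levels are the count rate of a gene relative to all gene counts of its library, after TMM scaling (CPM), and differences between libraries are on the log2(CPM + 1) scale. Library totals ran from 16801179 counts (ESO-26) to 69881539 (FLO-1), so that 3 counts, the floor used where a gene had 0 counts, equal 0.173 CPM in ESO-26 and 0.04 CPM in FLO-1. Where genes are compared with each other the deposited FPKM is used, which divides by gene length. Library names are the labels throughout, and every value belongs to the library so labelled. ERBB2, a growth factor receptor gene that OE19 is widely known to carry in amplified form, was highest in the library labelled SK-GT-4 (18325 CPM) and stood at 185 CPM in the library labelled OE19, so a library may hold a line other than the one its label names. Epithelial markers also set some libraries apart, since all 6 of those examined lay 4-fold or more below the median of the other 8 libraries in ESO-26 (EPCAM 5.13 CPM), 4 of 6 did so in OE33 (EPCAM 0.189 CPM) and 1 of 6 did so in JH_EsoAd1.

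The promoters of the CXC genes on chromosome 4 show what these genes share in sequence, and they are printed here because the expression of the same genes is described next. Promoters were taken from RefSeq (GRCh38.p14), which held 25 of the 31 genes, and the 250 bases before each start were searched on both strands. Some genes, such as CXCL13 and CCL24, have more than a single start. A gene was counted if any of its windows matched, whereas the shares over all promoters are per window. The letters GGAATTTCC, an NF-kB motif, occurred in 8 of the 25 genes (CXCL1, CXCL2, CXCL3, CXCL5, CXCL6, CXCL8, CXCL10 and CXCL11) and in 145 of 35116 windows of all promoters (0.413%). The last bases before the start of each of these genes follow, 5′ to 3′ on the strand of the gene, with the NF-kB letters, in either orientation, and the interferon-response letters (GAAA, any 2 bases, GAAA) in capitals.
CXCL1, chr4:73869283-73869392, strand plus: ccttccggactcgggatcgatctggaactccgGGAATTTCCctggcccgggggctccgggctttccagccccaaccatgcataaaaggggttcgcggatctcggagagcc
CXCL2, chr4:74099196-74099305, strand minus: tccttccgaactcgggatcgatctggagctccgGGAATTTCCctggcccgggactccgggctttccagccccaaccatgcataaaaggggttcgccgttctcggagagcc
CXCL3, chr4:74038690-74038799, strand minus: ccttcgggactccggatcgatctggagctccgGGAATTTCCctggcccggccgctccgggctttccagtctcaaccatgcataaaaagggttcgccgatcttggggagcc
CXCL8, chr4:73740459-73740568, strand plus: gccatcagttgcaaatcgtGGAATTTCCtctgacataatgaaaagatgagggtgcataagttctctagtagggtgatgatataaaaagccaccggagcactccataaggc
CXCL6, chr4:73836568-73836677, strand plus: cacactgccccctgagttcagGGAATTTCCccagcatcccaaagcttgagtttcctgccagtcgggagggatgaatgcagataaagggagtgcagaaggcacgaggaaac
CXCL5, chr4:73998678-73998787, strand minus: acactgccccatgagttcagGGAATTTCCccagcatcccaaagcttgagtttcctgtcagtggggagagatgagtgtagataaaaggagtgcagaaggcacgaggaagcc
CXCL11, chr4:76036071-76036180, strand minus: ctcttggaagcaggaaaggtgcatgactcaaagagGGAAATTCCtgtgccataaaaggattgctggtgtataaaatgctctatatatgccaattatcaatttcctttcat
CXCL10, chr4:76023498-76023727, strand minus: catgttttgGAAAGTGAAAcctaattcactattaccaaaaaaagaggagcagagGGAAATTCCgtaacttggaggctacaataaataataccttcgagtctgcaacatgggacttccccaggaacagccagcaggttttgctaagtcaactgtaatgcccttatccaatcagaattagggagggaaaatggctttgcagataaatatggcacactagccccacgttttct

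The site lay between -91 and -67 from the start in all but CXCL10, where it lay from -176 to -168. It read GGAATTTCC on the strand of the gene in the 6 genes from CXCL1 to CXCL5 above, and in the other orientation in CXCL10 and CXCL11. Over the whole window CXCL1 and CXCL3 shared 81.4% of aligned positions, CXCL5 and CXCL6 shared 85.3%, and CXCL8 shared 43.9% to 47.9% with the other 5 CXCR2 ligand genes. The interferon-response letters occurred in CXCL9 and CXCL10, and in 3.02% of all windows. The looser NF-kB form (GGG, any 5 bases, CC), which overlaps the GGAATTTCC motif where a G precedes it, occurred in 16 of the 25 genes but also in 54.4% of all windows. The AP-1 letters TGANTCA occurred in 6 genes (6.57% of all windows), among them CXCL8 and CXCL11, and TATAAA in 9 (10.7%). These matches describe letters in a window and say nothing of binding.

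Which chemokine genes were detected differed from library to library. Of the 31 genes, 14 (45.2%) reached 1 CPM in at least 1 library, against 37.8% of all named genes, and 9 of the 14 reached 5 CPM, namely CXCL1, CXCL2, CXCL3, CXCL8, CXCL12, CXCL16, CCL2, CCL28 and CX3CL1. CXCL6, CXCL10, CXCL11, CXCL17 and CCL20 peaked between 1 and 5 CPM. Another 14 had counts but stayed under 1 CPM in every library (CXCL5, CXCL9, CXCL13, CXCL14, CCL1, CCL7, CCL8, CCL17, CCL19, CCL21, CCL22, CCL24, CCL25 and CCL26), and CCL11, CCL13 and CCL27 had 0 counts in all 9. JH_EsoAd1 had 9 genes at 1 CPM or more, OE19, FLO-1 and OAC_5.1_C had 8, OACP4_C and ESO-51 had 7, SK-GT-4 had 6, OE33 had 4 and ESO-26 had 1. As a share of the 31 genes this is 3.23% in ESO-26 and 12.9% in OE33, against 26.5% and 27.2% of all named genes in the same libraries, while in JH_EsoAd1 the shares were 29% and 28.3%. In the other 6 libraries the shares were 19.4% to 25.8% of the chemokine genes and 26.2% to 29.2% of all named genes. In bulk RNA of this kind fewer expressing cells and less RNA per cell cannot be told apart.

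**Figure D1:**
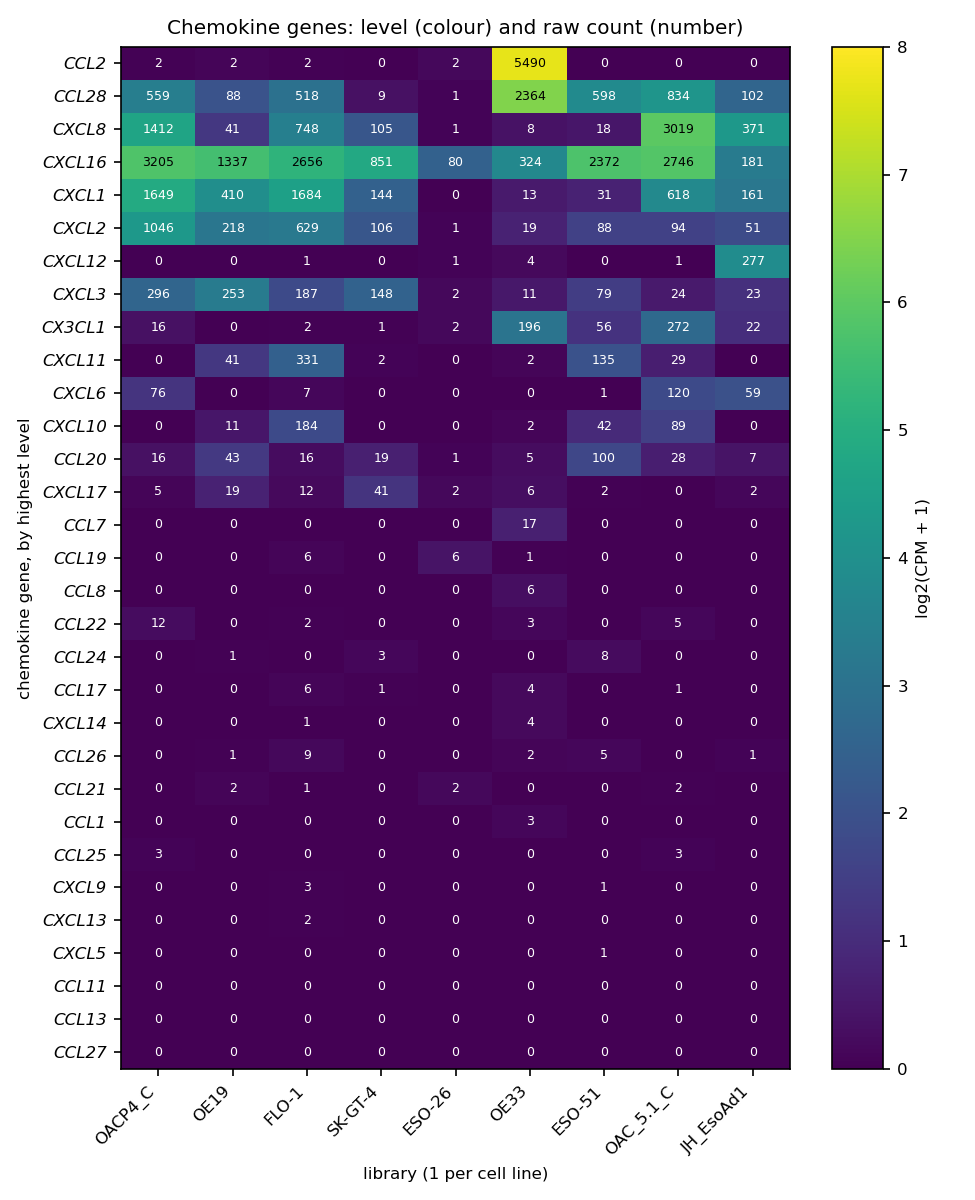
Level of the 31 chemokine genes (rows, ordered by their highest level) in the 9 libraries (columns, 1 per line), with colour giving log2(CPM + 1) and the number in each cell the raw count. The brightest cells are CCL2 and CCL28 in OE33, most of the lower rows hold counts of 0 to a few, and ESO-26 is dark in every row but that of CXCL16.

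Summed over the family, OE33 held the most message (319.9 CPM), followed by OAC_5.1_C (162 CPM), OACP4_C (143 CPM), FLO-1 (93.4 CPM), OE19 (87.9 CPM), ESO-51 (78.6 CPM), JH_EsoAd1 (62.3 CPM), SK-GT-4 (46 CPM) and ESO-26 (5.82 CPM). The order of libraries by total therefore differs from their order by number of genes, since OE33 had few genes and the highest sum. The CPM sums do not divide by gene length. By summed FPKM OE33 was again first (62) and ESO-26 last (1.08). OACP4_C (33.1) then stood above OAC_5.1_C (28.3), OE19 (18.2) above FLO-1 (17.6), and SK-GT-4 (8.03) above JH_EsoAd1 (3.39). FPKM also divides by all counts of a line's file, part of which lay outside the count table. That part was 77.3% in JH_EsoAd1 against 37.2% in SK-GT-4, 51% in FLO-1 against 25.8% in OE19, and 37% in OAC_5.1_C against 29.4% in OACP4_C. How far gene length and this larger total each changed the order was not tested. The genes also spread widely: the median range between the highest and the lowest library was 3.26 (log2) over the 14 genes at 1 CPM or more in at least 1 library, against 1.95 over all 19719 genes that met this condition. Genes that pass such a condition only through the library where they are high must differ, so this is a description of the 14.

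A few genes of the family stood far above all other libraries in a single one. By the rule of at least 4-fold over the next library at 5 CPM or more, 3 of the 14 genes (21.4%) qualified, CCL2 and CCL28 in OE33 and CXCL12 in JH_EsoAd1, where 5.51% of all genes tested did so in some library. For OE33 alone the share over all genes was 0.918%, and for JH_EsoAd1 it was 0.487%. Without OE33 the count was 1 gene. By the wider rule of 4-fold against the median of the other 8 libraries, 9 of the 14 genes (64.3%) lay above in at least 1 library, against 23.0% of all genes, and 4 (28.6%) lay below, against 13.8%. These came from 12 pairs of a gene and a library above and 10 below. CCL2 and CXCL12 reached 1 CPM only in the library where they were called. Genes that enter in this way must differ between libraries, so the shares describe the 14 genes and are no test.

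Above were CXCL1, CXCL2 and CXCL8 in OACP4_C (3.16% of all genes), CXCL3 in OE19 (3.55%), CXCL11 in FLO-1 (4.97%), and CCL2, CCL28 and CX3CL1 in OE33 (4.50%). CXCL8 and CX3CL1 lay above in OAC_5.1_C (4.52%), and CXCL8 and CXCL12 in JH_EsoAd1 (4.11%). Below were CXCL1, CXCL8, CXCL16 and CCL28 in ESO-26 (6.30% of all genes), CXCL1 and CXCL8 in OE33 (4.17%) and in ESO-51 (2.67%), CCL28 in SK-GT-4 (3.14%), and CXCL16 in JH_EsoAd1 (1.13%). CXCL8 thus lay above in 3 libraries and below in another 3. ESO-26, SK-GT-4 and ESO-51 had genes below and none above. The wider rule depends on the pseudocount, since with 5 in place of 1 it gave 3 pairs above and 1 below, without OE33 it gave 7 above, and without ESO-26 it gave 7 below.

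The neutrophil attractants that bind CXCR2 ranged from libraries that held all 4 main ligands to ESO-26 with almost none. CXCL1, also known as melanoma growth stimulatory activity, was 28.4 CPM in OACP4_C (95% interval 27.1 to 29.9), 22.5 in FLO-1, 14.6 in OE19, 12.7 in OAC_5.1_C, 7.98 in JH_EsoAd1, 4.63 in SK-GT-4, 0.689 in ESO-51, 0.49 in OE33 and 0 counts in ESO-26. The intervals of OE19 (13.2 to 16.1) and OAC_5.1_C (11.7 to 13.8) overlapped, as did those of OE33 and ESO-51. CXCL2, a close paralogue of CXCL1, was 18 CPM in OACP4_C, 8.39 in FLO-1, 7.77 in OE19, 3.41 in SK-GT-4, 2.53 in JH_EsoAd1, 1.96 in ESO-51, 1.93 in OAC_5.1_C, 0.717 in OE33 and 0.0577 (1 count) in ESO-26. For both genes OACP4_C was highest and ESO-26 lowest, with FLO-1 and OE19 next to OACP4_C.

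CXCL3, the third of these paralogues, was 9.02 CPM in OE19, 5.11 in OACP4_C, 4.76 in SK-GT-4, 2.49 in FLO-1, 1.76 in ESO-51, 1.14 in JH_EsoAd1, 0.494 in OAC_5.1_C, 0.415 in OE33 and 0.115 (2 counts) in ESO-26. Its highest library was thus OE19, not OACP4_C. CXCL8, the interleukin-8 gene, was 62.1 CPM in OAC_5.1_C (59.9 to 64.4), 24.4 in OACP4_C (23.1 to 25.7), 18.4 in JH_EsoAd1 (16.6 to 20.4), 9.97 in FLO-1, 3.38 in SK-GT-4, 1.46 in OE19, 0.4 in ESO-51, 0.302 in OE33 and 0.0577 (1 count) in ESO-26. OAC_5.1_C, the library with the most CXCL8, was among the 3 lowest for CXCL3, and OE19, the library with the most CXCL3, was among the 4 lowest for CXCL8. Within 1 library the transcripts of CXCL1, CXCL2 and CXCL3 share some sequence: in GENCODE release 29, 4.81%, 12.5% and 6.01% of their 50-base stretches occur in another gene, nearly all in each other.

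CXCL6, also called granulocyte chemotactic protein, reached 2.92 CPM in JH_EsoAd1 (59 counts), 2.47 in OAC_5.1_C (120 counts) and 1.31 in OACP4_C (76 counts). It had 7 counts in FLO-1, 1 in ESO-51 and 0 in the other 4 libraries. The 3 libraries with CXCL6 were the 3 with the most CXCL8, its neighbour on the chromosome. CXCL5, which has the promoter closest to that of CXCL6, had a single count, in ESO-51.

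**Figure D2:**
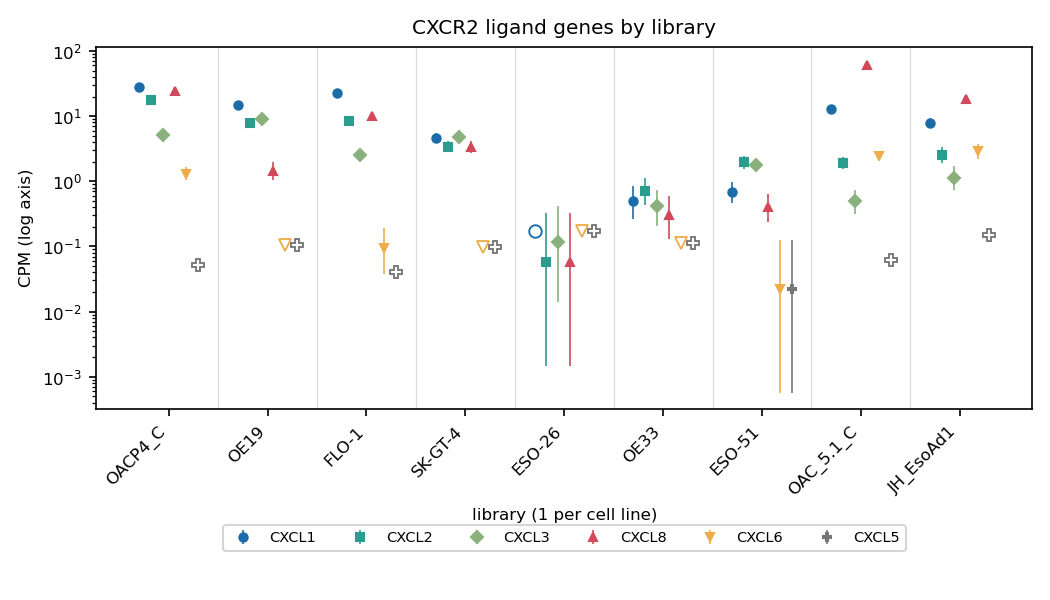
CPM (log axis) of the 6 CXCR2 ligand genes in each library, with vertical bars for exact Poisson 95% intervals (counting error only) and open symbols at the floor of 3 counts where the count was 0. CPM does not correct for gene length, so symbols are to be compared along a gene: CXCL8 peaks in OAC_5.1_C (62.1 CPM), CXCL1 and CXCL2 in OACP4_C (28.4 and 18) and CXCL3 in OE19 (9.02), and in ESO-26, OE33 and ESO-51 all symbols lie at or under 1.96 CPM.

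The balance among the 4 main ligands can be read within a library, where scaling plays no part. CXCL8 made up 80.4% of the counts of CXCL1, CXCL2, CXCL3 and CXCL8 together in OAC_5.1_C (Wilson 95% interval 79.1 to 81.6%) and 61.2% in JH_EsoAd1 (57.3 to 65%). Its share was 32.1% in OACP4_C (30.7 to 33.5%), 23% in FLO-1 (21.6 to 24.5%) and 20.9% in SK-GT-4 (17.6 to 24.6%). In ESO-51 it was 8.33% (5.34 to 12.8%), in OE19 it was 4.45% (3.29 to 5.98%), and in OE33, from 51 counts, 15.7% (8.17 to 28%). ESO-26 had only 4 such counts, too few for a share.

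The shares of CXCL3 follow, which are not independent of those of CXCL8, since shares of 1 sum constrain each other. CXCL3 made up 36.6% of the same sum in ESO-51, 29.4% in SK-GT-4 and 27.4% in OE19, and 0.639% in OAC_5.1_C (0.43 to 0.949%) and 3.8% in JH_EsoAd1. FLO-1 (5.76%) and OACP4_C (6.72%) lay between, and OE33 was at 21.6%. Compared per length, CXCL1 led the 4 genes in FLO-1 (63.8% of their summed FPKM), OE19 (59.4%), OACP4_C (49.5%) and SK-GT-4 (42.4%), CXCL2 led in ESO-51 (45.9%), and CXCL8 led in OAC_5.1_C (71.7%) and JH_EsoAd1 (51.2%). In OE33 CXCL2 (37.8%) and CXCL1 (36.6%) were close, from few counts.

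Across the 9 libraries the CXCR2 ligands did not form a single block. The correlation of log2(CPM + 1) was 0.88 for CXCL1 and CXCL2 (Spearman rho 0.88), 0.83 for CXCL2 and CXCL3 (0.90), 0.85 for CXCL6 and CXCL8 (0.82) and 0.78 for CXCL1 and CXCL8 (0.77). It was 0.09 for CXCL3 and CXCL8 (rho 0.35) and -0.19 for CXCL3 and CXCL6. With single libraries left out the former ran from -0.15 (without ESO-26) to 0.39 (without OAC_5.1_C), and the latter from -0.37 (without ESO-26) to -0.01 (without OAC_5.1_C). The median over the 10 pairs of CXCL1, CXCL2, CXCL3, CXCL6 and CXCL8 was 0.55. Without the 2 libraries farthest from the median of the first gene, CXCL1 and CXCL2 kept 0.74, CXCL2 and CXCL3 0.78, CXCL6 and CXCL8 0.78 and CXCL1 and CXCL8 0.62, while CXCL1 and CXCL3 went from 0.61 to 0.25 and the median from 0.55 to 0.27. Without ESO-26 alone the median was 0.44, and without OAC_5.1_C it was 0.74. These are descriptions over 9 points that share their depth and scaling within a library, from 25 such relations computed, and ESO-26 lies at the low end of CXCL1, CXCL2, CXCL3 and CXCL8.

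**Figure D3:**
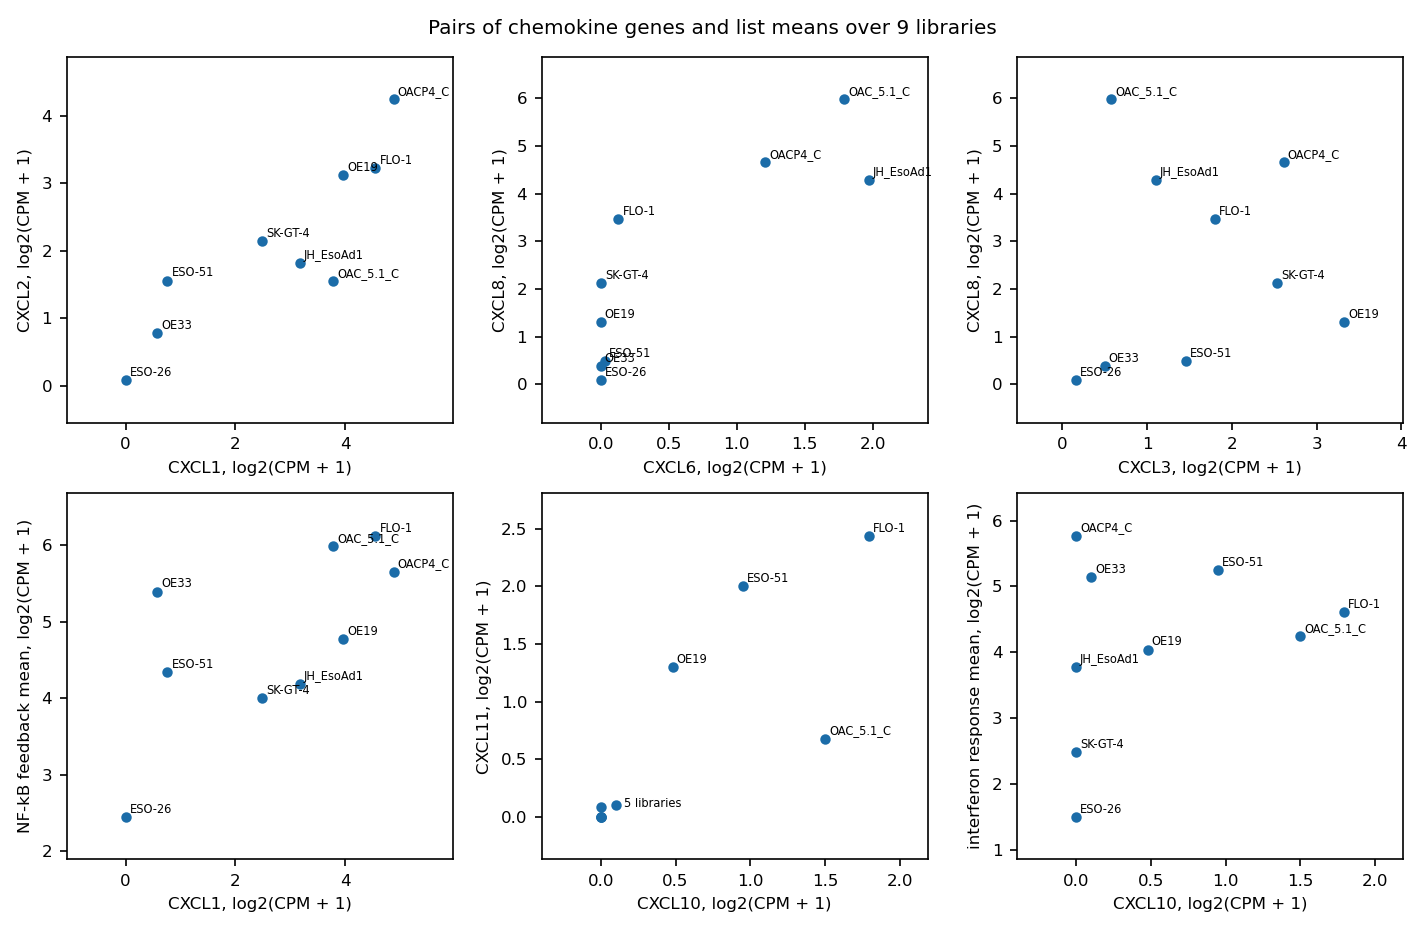
Each point is 1 library, labelled by line, and both axes are log2(CPM + 1) of a gene or the mean of a list of genes. CXCL1 and CXCL2 rise together (r 0.88), CXCL3 and CXCL8 do not (r 0.09), and OACP4_C lies at 0 for CXCL10 with the highest interferon response mean (5.77).

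NF-kB feedback genes, which the factor itself switches on, were compared with the 6 CXCR2 ligands and CCL20. CXCL10 and CXCL11, whose promoters also hold the GGAATTTCC motif, were not compared with them. The mean log2 level of NFKBIA, TNFAIP3, BIRC3, NFKBIZ and RELB was 6.12 in FLO-1, 5.98 in OAC_5.1_C, 5.65 in OACP4_C, 5.39 in OE33, 4.77 in OE19, 4.34 in ESO-51, 4.18 in JH_EsoAd1, 4.0 in SK-GT-4 and 2.45 in ESO-26. Its correlation over the 9 libraries was 0.66 with CXCL1, 0.59 with CXCL8, 0.57 with CXCL2, 0.29 with CXCL6, 0.22 with CXCL3, -0.01 with CCL20 and -0.14 with CXCL5, which had 1 count in all. OE33 stood apart from this relation, with a high mean and CXCL1 at 0.49 CPM. The mean of OAC_5.1_C leans on BIRC3, at 1814 CPM there and at most 146 CPM elsewhere. Its other genes were at 84.6 CPM (NFKBIA), 21.4 (TNFAIP3), 16.9 (RELB) and 15.1 (NFKBIZ) in OAC_5.1_C. The correlations were not recomputed without BIRC3. Leaving out single libraries moved the value for CXCL1 between 0.46 (without ESO-26) and 0.85 (without OE33), and that for CXCL3 between -0.24 (without ESO-26) and 0.40 (without OAC_5.1_C). The value for CXCL2 ran from 0.27 (without ESO-26) to 0.71 (without OE33), and that for CXCL8 from 0.45 to 0.73 without the same libraries. For CXCL6 the range was 0.10 (without OAC_5.1_C) to 0.53 (without JH_EsoAd1), and for CCL20 it was -0.48 (without ESO-26) to 0.14 (without ESO-51). The relations of CXCL1, CXCL2, CXCL3, CXCL8 and CCL20 with this mean were thus lowest without ESO-26, the library with the lowest mean.

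Of the wider NF-kB list of 16 genes, 6 lay 4-fold or more below the median of the other libraries in ESO-26, where 6.30% of all genes did so. The genes with the widest ranges were BIRC3, an apoptosis inhibitor, at 1814 CPM in OAC_5.1_C and 0.807 CPM in ESO-26, and TNFAIP2, at 559 CPM in FLO-1 and 0.692 CPM in ESO-26. ICAM1, an adhesion molecule for leukocytes, was 256 CPM in OE33 and 0.225 CPM in SK-GT-4. TNFAIP3, the feedback inhibitor A20, was 76.9 CPM in OACP4_C and 1.27 CPM in ESO-26, and IER3 was 199 CPM in OACP4_C and 8.59 CPM in ESO-26.

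Cytokines that induce chemokines or are secreted with them also differed between libraries. Of 16 listed, 14 reached 1 CPM in some library, with 4 of them above in FLO-1 (4.97% of all genes) and 4 below in ESO-26 (6.30%) by the 4-fold rule against the median. IL1B, an upstream inducer of CXCL8, was 139 CPM in OE19 and at most 4.87 CPM elsewhere. IL33, an epithelial alarmin, was 80.5 CPM in FLO-1, and IL18 109 CPM in the same library. LIF was 170.4 CPM in OACP4_C, and TNFSF15 was 124 CPM in SK-GT-4.

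Receptors and adaptors for cytokines, interferons and bacterial products were unevenly present. TLR4, the lipopolysaccharide receptor, was 48.6 CPM in JH_EsoAd1, 34.2 in FLO-1, 15.4 in SK-GT-4 and 0 counts in OE19 and ESO-26. TLR2 was 17.6 CPM in OAC_5.1_C with 0 counts in OE19 and SK-GT-4, and TNFRSF1B, a TNF receptor, was 88.5 CPM in OE19 and 0.288 in ESO-26. IRAK4, a kinase that relays IL-1 and Toll-like receptor signals, was highest in ESO-51 at 75.9 CPM and had 0 counts in SK-GT-4. Of the 20 genes in this list, 4 lay below in ESO-26 (6.30% of all genes) and 3 in SK-GT-4 (3.14%), and 3 lay above in each of FLO-1 (4.97%) and OAC_5.1_C (4.52%).

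The T cell attractants that bind CXCR3 were low, and present in few libraries. CXCL11 was 4.41 CPM in FLO-1 (3.95 to 4.91), 3 in ESO-51 (2.52 to 3.55), 1.46 in OE19 and 0.597 in OAC_5.1_C, had 2 counts each in SK-GT-4 and OE33, and 0 counts in OACP4_C, ESO-26 and JH_EsoAd1. CXCL10 was 2.45 CPM in FLO-1 (2.11 to 2.83), 1.83 in OAC_5.1_C (1.47 to 2.25), 0.934 in ESO-51 and 0.392 in OE19, had 2 counts in OE33 and 0 in the other 4. CXCL9, the third gene of this group, had 3 counts in FLO-1 and 1 in ESO-51. The same 4 libraries therefore carried both CXCL10 and CXCL11 above 5 counts, and they differed in balance. Per length, CXCL11 exceeded CXCL10 in ESO-51 (FPKM 0.906 and 0.522) and OE19 (0.467 and 0.232), CXCL10 exceeded CXCL11 in OAC_5.1_C (0.944 and 0.166), and the genes were level in FLO-1 (1.1 and 1.07).

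The CXCR3 ligands were more closely related to each other than to the mean of the interferon response list. CXCL10 and CXCL11 correlated at 0.81 over the 9 libraries (rho 0.92), whereas CXCL10 and the mean of 20 interferon response genes gave 0.30, and CXCL11 and that mean 0.35. With single libraries left out these ran from 0.15 to 0.51 for CXCL10 and from 0.21 to 0.56 for CXCL11, lowest without ESO-26 and highest without OACP4_C, and without OE33 they were 0.40 and 0.45. OACP4_C had the highest mean (5.77), with IFIT3 at 154 CPM and OAS2 at 123 CPM, yet 0 counts of CXCL9, CXCL10 and CXCL11. At its depth the upper 95% limit for 0 counts is 0.0636 CPM. OE33 followed ESO-51 at 5.14, with 8 of the 20 genes 4-fold above the median (4.50% of all genes) and IFIT1 at 207 CPM, and had 2 counts each of CXCL10 and CXCL11. ESO-51 (5.25), where MX1 reached 444 CPM, did carry CXCL11. IFIT2 was highest in OAC_5.1_C at 149.6 CPM. ESO-26 and SK-GT-4 had the lowest means (1.5 and 2.48), with 15 and 10 of the 20 genes below (6.30% and 3.14% of all genes), and no more than 2 counts of either ligand.

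CXCL16 was the only member at 1 CPM or more in every library. It is made as a membrane protein and is shed as a soluble ligand of CXCR6. Its level was 56.5 CPM in OAC_5.1_C (54.4 to 58.7), 55.3 in OACP4_C (53.4 to 57.2), 52.7 in ESO-51 (50.6 to 54.9), 47.6 in OE19, 35.4 in FLO-1, 27.4 in SK-GT-4, 12.2 in OE33, 8.97 in JH_EsoAd1 and 4.61 in ESO-26 (3.66 to 5.74). OAC_5.1_C and OACP4_C were within counting error of each other, as were OACP4_C and ESO-51, and the 3 lowest libraries were separate. The exons of CXCL16 overlap those of MED11 on the opposite strand, and none of the sources used here says whether counting used strand. MED11 stayed between 2.07 and 9.88 CPM. ADAM10, the protease that sheds CXCL16 and CX3CL1, ranged from 98.8 CPM in SK-GT-4 to 349 CPM in OAC_5.1_C, and CXCR6 from 0.535 to 1.67 CPM.

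CX3CL1, or fractalkine, another membrane-bound chemokine, was 7.39 CPM in OE33 (6.39 to 8.5), 5.6 in OAC_5.1_C (4.95 to 6.3), 1.24 in ESO-51, 1.09 in JH_EsoAd1, 0.276 in OACP4_C, 0.115 in ESO-26 (2 counts), 0.0322 in SK-GT-4 (1 count), 0.0267 in FLO-1 (2 counts) and 0 counts in OE19. Its neighbours on chromosome 16, CCL22 and CCL17, had 22 and 12 counts over all 9 libraries. CXCL17, a mucosal chemokine, peaked at 1.32 CPM in SK-GT-4 (41 counts), followed by 0.677 in OE19. CXCL13 and CXCL14 had 2 and 5 counts in all.

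CXCL12, the ligand of CXCR4 that stromal cells make, was high in JH_EsoAd1 alone, with at most 4 counts in any of the other 8 libraries. It was 13.7 CPM there (277 counts, 12.2 to 15.4), 0.151 in OE33 (4 counts), 1 count each in FLO-1, ESO-26 and OAC_5.1_C, and 0 counts in OACP4_C, OE19, SK-GT-4 and ESO-51. The gap to the next library was 3.68 on the log2 scale. It fell to 1.86 with a pseudocount of 5 and to 0.37 on log2(FPKM + 1), where both values lie below the added 1 (FPKM 0.306 in JH_EsoAd1 and 0.0103 in OE33). FPKM also divides by a larger total of counts. Of that total, 77.3% lay outside the deposited count table in JH_EsoAd1 and 47.2% in OE33, which lowers FPKM more in JH_EsoAd1. Of the markers of other cell types, the fibroblast list summed to 48 CPM in JH_EsoAd1 (1.92 to 326 in the others), mostly COL1A1 at 46.5. There 5 of its 6 genes had counts, but only 1 reached 1 CPM, and DCN had 0 counts. The endothelial list summed to 32.3 CPM there (0.173 to 10.3 in the others), mostly CDH5 at 29.8. All 6 of its genes had counts there, but only 2 reached 1 CPM. Haematopoietic markers summed to 9.37 CPM (1.7 to 26.1 in the others), mostly CD14 at 6.1, with CD68 at 0 counts. Their part in the CXCL12 level was not tested.

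Receptors of CXCL12 were highest in other libraries. CXCR4 was 10.4 CPM in SK-GT-4, 7.29 in OAC_5.1_C, 5.54 in OE33 and 1.98 in JH_EsoAd1, and 0.4 CPM or less in the other 5 libraries. ACKR3, the atypical receptor that takes up CXCL12 and CXCL11, was 30.7 CPM in FLO-1 and 0.793 or less in the other 8. FLO-1 was also the library with the most CXCL11. DPP4, a protease that trims CXCL10 and CXCL12, was 383 CPM in OE19, 197 in ESO-51, 45.6 in OACP4_C and 1.78 in JH_EsoAd1.

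CCL2, the main monocyte attractant, was present above 2 counts in a single library. OE33 held 5490 counts, or 207 CPM (202 to 213), while OACP4_C, OE19, FLO-1 and ESO-26 had 2 counts each and SK-GT-4, ESO-51, OAC_5.1_C and JH_EsoAd1 had 0. The gap to the next library was 7.54 on the log2 scale, the widest of the gaps among the 14 genes, and was past the 4-fold rule at every pseudocount and scaling tried and on FPKM. The genes that lie beside CCL2 on chromosome 17 had counts in OE33 alone, 17 for CCL7 (0.641 CPM), 6 for CCL8 and 3 for CCL1, whereas CCL11 and CCL13 of the same cluster had none. TMEM132E, the next gene after the cluster, had 0.641 CPM in OE33 and 20 counts in all, and ASIC2 on the other side had 0 counts in OE33. The counts of CCL7, CCL8 and CCL1 are too few to set apart from each other.

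Markers of blood cells were near 0 or low in OE33. The 10 haematopoietic markers summed to 4.19 CPM in OE33 and 1.7 to 26.1 CPM in the other libraries, and PTPRC, CD68 and HBB had 0 counts in OE33. Fibroblast markers summed to 28.6 CPM there, within the range of the sums of the others (1.92 to 326). Of this sum COL1A1 was 19.8 and PDGFRB 8.18. Endothelial markers summed to 6.49 CPM (0.173 to 32.3 in the others), of which CLDN5 was 5.85. PDGFRB and CLDN5 were highest in OE33, with at most 1.07 and 0.885 CPM elsewhere. MMP2, a gelatinase able to cleave CCL7 and CXCL12, was 71.6 CPM in OE33 and 0.267 or less elsewhere. The receptor CCR2 was at most 0.123 CPM in any library. The part of these markers and of the low epithelial markers of OE33 in its CCL2 level was not tested.

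CCL28, the mucosal chemokine that calls in plasma cells and also kills microbes, was highest in the same library but present in most. It was 89.2 CPM in OE33 (85.6 to 92.8), 17.2 in OAC_5.1_C, 13.3 in ESO-51, 9.64 in OACP4_C, 6.91 in FLO-1, 5.06 in JH_EsoAd1, 3.14 in OE19, 0.289 in SK-GT-4 (9 counts) and 0.0577 in ESO-26 (1 count). OE33 was 2.31 above the next library on the log2 scale, or 1.77 on log2(FPKM + 1), which is under the 4-fold rule. The FPKM was 7.75 in OE33 and 1.56 in OAC_5.1_C, so the added 1 weighs on the lower value. The 2 genes that follow it on chromosome 5 were also highest in OE33, TMEM267 at 63.2 CPM (10.5 to 27.3 elsewhere) and C5orf34 at 33.9 CPM (0.962 to 20.5 elsewhere), as was NIM1K on the other side at 3.96 CPM, whereas HMGCS1, which lies between NIM1K and CCL28, was highest in OAC_5.1_C. The part of this neighbourhood in the CCL28 level was not tested. CCR10, the receptor of CCL28, was highest in OE33 too, at 3.47 CPM, followed by ESO-26 at 2.6.

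CCL20, the CCR6 ligand that epithelium makes under IL-1 and IL-17, was low everywhere. It peaked at 2.22 CPM in ESO-51 (100 counts, 1.81 to 2.7) and 1.53 in OE19 (43 counts), and ran from 0.0577 (1 count, ESO-26) to 0.611 CPM (SK-GT-4) in the others. The remaining CC chemokines, which home lymphocytes and eosinophils in other tissues, stayed near the floor. The highest of them was CCL19 at 0.346 CPM in ESO-26 (6 counts), and CCL21, CCL24, CCL25 and CCL26 stayed at 0.178 CPM or less. Reads of CCL27 could be divided with another gene, AL162231.4, which holds 87.8% of its 50-base stretches.

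Per length, the make-up of the family differed from library to library. CXCL1 took the largest share of the summed FPKM of the 31 genes in OACP4_C (36.3%) and FLO-1 (40.2%), CXCL16 in SK-GT-4 (39.7%), ESO-51 (57.5%) and ESO-26 (60.8%, from 101 chemokine counts in all), CXCL8 in OAC_5.1_C (46.3%) and JH_EsoAd1 (35.6%), and CCL2 in OE33 (82.9%). In OE19 CXCL16 and CXCL1 were nearly level, at 33.9% and 33.5%. The second gene was CXCL16 in OACP4_C (21.9%), FLO-1 (19.7%) and OAC_5.1_C (22.5%), CXCL1 in SK-GT-4 (21.6%) and JH_EsoAd1 (26.5%), and CCL28 in OE33 (12.5%) and ESO-51 (11.7%). CCL2 in OE33 had an FPKM of 51.4, against 7.75 for CCL28 and 1.32 for CXCL16 in the same library, and CXCL8 in OAC_5.1_C had 13.1. In ESO-26 CXCL16 had an FPKM of 0.657. By counts without regard to length the first gene was CXCL16 in OACP4_C (38.6%) and FLO-1 (37.9%), where CXCL1 took 19.9% and 24%.

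**Figure D4:**
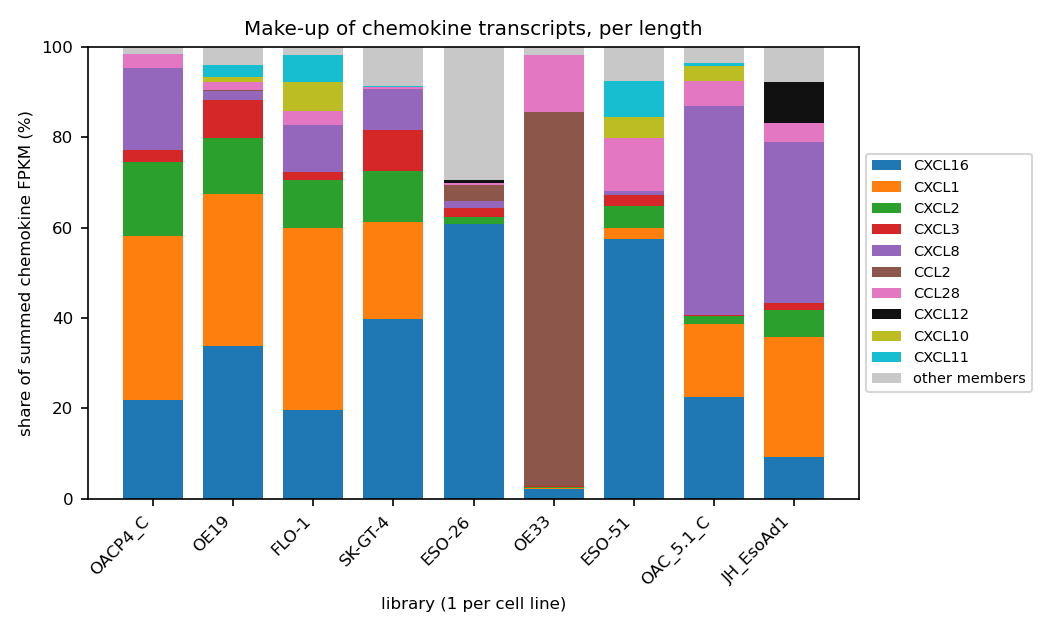
Share of the summed deposited FPKM of the 31 chemokine genes (vertical axis, %) taken by each of 10 genes and by all others together, for each library. The OE33 bar is mostly CCL2 (82.9%), OAC_5.1_C and JH_EsoAd1 have the tallest CXCL8 segments (46.3% and 35.6%), and CXCL16 fills most of the bars of ESO-26 and ESO-51; the ESO-26 bar rests on 101 counts.

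A minority of the chemokine receptor genes was detected at 1 CPM or more, as of all named genes. Of 18 listed, 6 (33.3%) reached 1 CPM in some library, against 37.8% of all named genes (CXCR1, CXCR4, CXCR6, CCR3, CCR9 and CCR10). CXCR1, a receptor of CXCL8 and CXCL6, was 9.03 CPM in FLO-1, 0.0322 in SK-GT-4 and 0 counts in the other 7 libraries. CXCR2 peaked in FLO-1 as well, at 0.52 CPM. FLO-1 had CXCL1 at 22.5 and CXCL8 at 9.97 CPM. CXCR3 reached at most 0.445 CPM (ESO-51), CCR6 0.0643 and CX3CR1 0.346 (ESO-26), and ACKR1 had 0 counts in every library. MMP1, a collagenase that can cleave CXCL12 and CCL2, was 2521 CPM in OE19 and 0.2 in FLO-1. CXCR2, CXCR3, CCR6, CX3CR1 and ACKR1 were named for their ligands, after their values were seen.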

How the data were processed

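RNA-seq of 9 cell lines was analysed from a deposited table of raw whole-number counts (52158 named genes) and 1 deposited file per line with counts, FPKM and a gene length, per the file headers. The submitters' processing notes name the build GRCh37 and, among the authors' tools, R 3.6.1, STAR 2.6.1d and FastQC 0.11.7. Counting program, annotation release and strand setting are not given in the sources used here. From the values, the deposited FPKM divides the count by gene length and by all counts of the line's file. Of those counts, 25.8% (OE19 and ESO-26) to 77.3% (JH_EsoAd1) lie outside the table, so FPKM is lowered unequally between libraries. A column headed OACM5.1_C held the counts of OAC_5.1_C. A blank row (0.00485% to 0.00965% of counts) was left out. All 31 genes had equal counts in table and line files.

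Counts were scaled with TMM factors (edgeR 4.0.16, R 4.3.3) and used as log2(CPM + 1). A gene was tested if it reached 1 CPM in at least 1 library (19719 genes), and was called higher in a library when 2 or more log2 units above the other 8 at 5 CPM or more, or 4-fold above or below when 2 log2 units from the median of the other 8. Intervals are at 95%, exact Poisson for counts and Wilson for shares, and the floor is 3 counts. Depth, from 16801179 to 69881539 counts, sets the precision of low genes. The rules of the calls were run on simulated counts with counting error only, for genes with a median of 5 CPM or more. Genes with lower medians, such as CCL2 (0.0267 CPM) and CXCL12 (0.0133 CPM), were not covered. Promoters came from RefSeq (GRCh38.p14) and were aligned end to end (Biopython 1.88), with identity over aligned columns, gaps included. Remaining steps ran in Python 3.11.15 (pandas 2.3.3, matplotlib 3.10.9, scipy 1.17.1, numpy 2.4.6). Alternatives were other scalings (library size, DESeq2 1.42.0), pseudocounts, thresholds, FPKM and leaving out libraries.

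Members at 5 CPM or more are named with all values, those at 1 to 5 CPM with their highest, and the rest by name. From each other list up to 4 genes (5 for the NF-kB, cytokine and interferon lists) with the widest ranges at 5 CPM or more are named. Other receptors, neighbours and markers were named after their values were seen. The value of 1 listed marker is not reported here. Members and lists were chosen with earlier results of these data known.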

Additional observations from a re-analysis of the deposited data

How the results depend on the processing

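The number of genes higher in a single library was 3, against 1 on FPKM, 5 with a 2-fold gap and 1 to 3 with single libraries left out (1 without OE33). Pairs 4-fold above the median numbered 12, against 3 with a pseudocount of 5, 6 on FPKM, 30 at 2-fold and 7 to 12 with libraries left out (7 without OE33). Pairs below numbered 10, against 1 with a pseudocount of 5, 1 on FPKM, 18 at 2-fold and 7 to 10 with libraries left out. The median range of 3.26 became 3.97 with a pseudocount of 0.5, 1.68 with 5 and 1.19 on FPKM. The median r of 0.55 became 0.27 without the 2 farthest libraries, and 0.44 (without ESO-26) to 0.74 (without OAC_5.1_C) with single ones left out. At 5 CPM in place of 1, OE19 had 4 genes, FLO-1, OAC_5.1_C and JH_EsoAd1 5, ESO-51 2, SK-GT-4 1 and ESO-26 0. By counts without length, the shares were 19.9% (CXCL1 in OACP4_C), 24% (CXCL1 in FLO-1), 54.2%, 59.5%, 79.2% and 67.1% (CXCL16 in OE19, SK-GT-4, ESO-26 and ESO-51), 64.7% (CCL2 in OE33), and 38.3% and 29.5% (CXCL8 in OAC_5.1_C and JH_EsoAd1). The causes of these shifts were not tested. Among 207 recomputed gaps, 204 kept their side of the 4-fold rule, and 3 fell under it, CXCL12 with a pseudocount of 5 and on FPKM and CCL28 on FPKM. Scaling by library size moved the median gene by -0.24 (JH_EsoAd1) to 0.13 (ESO-51) against TMM, and DESeq2 factors by -0.05 to 0.03. TMM factors estimated on all genes were added after seeing the data. With counts this low in ESO-26 (3 counts are 0.173 CPM), absence cannot be shown. No paired analysis was possible because each line has 1 library and the labels carry no replicate numbers.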

Other observations

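Chemokines whose symbols fall outside the CXCL and CCL naming gave 2 values worth a second look, chosen after the values were seen. PF4, the platelet chemokine whose gene lies between CXCL1 and PPBP on chromosome 4, had 110 counts in OE19 (3.92 CPM) and 0 counts in the other 8 libraries, while its near copy PF4V1 had 29 counts in all and PPBP 19. XCL1, a lymphocyte chemokine, was 1.44 CPM in JH_EsoAd1 and its near copy XCL2 0.496 CPM in the same library, against at most 0.249 and 0.0412 CPM elsewhere. Reads of such near copies could be divided between them by the counting, so each pair is uncertain.

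SLC25A48, a gene that overlaps CXCL14 on the opposite strand, was 4.11 CPM in OE33 and 0.231 CPM or less elsewhere, and OE33 also held 4 of the 5 counts of CXCL14. Without knowing whether counting used strand, these reads cannot be told apart.

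CCRL2, an atypical receptor that does not signal, was 4.61 CPM in OACP4_C, 4.5 in SK-GT-4, 4.49 in OE19 and 3.5 in OAC_5.1_C, and 1.14 or less in the other 5. ACKR2, which takes up inflammatory CC chemokines, was 4.63 CPM in OAC_5.1_C, followed by 1.54 in JH_EsoAd1.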
